A study of Mus musculus with 6 samples.

Results

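The 10 genes described here encode the mammalian NF-κB subunits and the IκB proteins that bind them, in soft tissue tumors of mice in which the NF-κB-inducing kinase NIK was made constitutively active. They were picked by symbol, not by their measured values, and were found as 10 of the 23358 gene entries in the deposited count table. *Rel*, *Rela*, *Relb*, *Nfkb1* and *Nfkb2* encode the 5 subunits, and *Nfkbia*, *Nfkbib*, *Nfkbie*, *Nfkbiz* and *Bcl3* encode 5 IκB family proteins. All 10 passed the filter on low counts.

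RNA was sequenced from 6 tumors of 6 female mice, each named by its mouse number. All mice carried *NT3*, a *NIK* allele without the TRAF3-binding domain that sits in the *ROSA26* locus behind a floxed STOP cassette, together with GFP. In *Osx-Cre;NT3* mice the Cre is driven by the *Osterix* promoter in a doxycycline-repressible form, held off with doxycycline chow until weaning, and in *FSP1-Cre;NT3* mice it is driven by the *S100a4* promoter. The *Osx-Cre;NT3* tumors, 13, 18 and 25, all lay on the trunk, with latencies of 150, 168 and 115 days. In *FSP1-Cre;NT3* mice tumor 29 was on the trunk and tumors 27 and 36 were perineal, with latencies of 72, 101 and 52 days. The lines also differ in strain background (C57Bl/6J with CD1 for the *Osx-Cre* parents, FVB/n for the *FSP1-Cre* parents) and in doxycycline, so that line, strain, doxycycline, latency and in part site cannot be told apart. All 6 tumors carry active NIK, and no tissue without it was analysed here.

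NF-κB proteins act as dimers that are held in the cytoplasm by IκB proteins. In the classical arm the IKK complex marks IκBα for destruction and frees mainly RelA:p50 dimers, while in the alternative arm NIK and IKKα drive the cutting of p100, the *Nfkb2* product, to p52, which enters the nucleus with RelB. *Nfkbia*, *Nfkb2* and *Relb* are textbook NF-κB target genes, so that part of the family is under its own feedback control, and IκBζ (*Nfkbiz*) and Bcl-3 act mainly in the nucleus as cofactors of p50 and p52.

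The promoters of these genes show where NF-κB binding motifs lie, and for the most abundant members, *Nfkb2* and *Nfkbia*, a whole promoter window is printed, that of the most upstream start for *Nfkb2*. Promoter windows of 300 bases, 250 before the transcript start and 50 from it, were taken from RefSeq (GRCm38.p6) for the 7 members that had one, 9 windows in all since *Nfkb2* has 3 starts. The 10-base κB consensus, searched on both strands without a mismatch, was found in the windows of 5 of these 7 members, *Rel*, *Nfkb2*, *Nfkbia*, *Nfkbie* and *Bcl3*, against 1480 of all 32851 windows of this length (4.51%) and 1388 of the 27025 gene symbols with a window (5.14%). The windows of *Rela* and *Nfkbib* held no match, and *Relb*, *Nfkb1* and *Nfkbiz* had no window. The member windows had a GC content of 56.3% to 75%, and the median of all windows was 52.7%. The sequences below run 5′ to 3′ in the direction of transcription, with the bases of a κB consensus match in capitals, where overlapping matches run together. For *Rel*, *Nfkbie* and *Bcl3* 60 bases around the match are shown.
Nfkb2 (chr19:46304487-46304786, plus strand): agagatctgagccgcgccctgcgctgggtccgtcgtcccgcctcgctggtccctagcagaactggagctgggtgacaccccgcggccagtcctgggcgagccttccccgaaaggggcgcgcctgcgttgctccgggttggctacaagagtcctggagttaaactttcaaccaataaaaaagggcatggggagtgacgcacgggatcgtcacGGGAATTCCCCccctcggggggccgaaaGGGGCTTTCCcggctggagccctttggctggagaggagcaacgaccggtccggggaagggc
Nfkbia (chr12:55492598-55492897, minus strand): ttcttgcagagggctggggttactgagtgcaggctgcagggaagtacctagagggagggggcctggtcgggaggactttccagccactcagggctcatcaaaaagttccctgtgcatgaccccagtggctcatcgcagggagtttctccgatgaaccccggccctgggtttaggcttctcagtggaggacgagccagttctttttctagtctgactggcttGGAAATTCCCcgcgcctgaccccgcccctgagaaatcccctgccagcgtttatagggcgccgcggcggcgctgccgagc
Rel (chr11:23771026-23771085, minus strand): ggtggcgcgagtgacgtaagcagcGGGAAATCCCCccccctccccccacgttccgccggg
Nfkbie (chr17:45555569-45555628, plus strand): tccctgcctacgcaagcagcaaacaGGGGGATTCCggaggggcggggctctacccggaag
Bcl3 (chr7:19822719-19822778, minus strand): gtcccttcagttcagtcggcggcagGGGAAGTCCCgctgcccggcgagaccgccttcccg

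*Nfkb2* held 4 separate κB matches over its windows, 2 of them in the window printed, starting at positions -39 and -11 relative to the transcript start. *Nfkbia*, *Rel*, *Nfkbie* and *Bcl3* held 1 match each, starting at positions -29, -92, -106 and 3. With the looser pattern GGGNNNNNCC, which also takes in every consensus match, 6 of the 7 members had a match, but so did 50.8% of all windows, so the looser count does not set the members apart. A match is a description of the letters in the window and not a measured binding site.

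The tumors had total counts of 51824408 to 163297772, and all counts were even. *Krt5*, a basal keratinocyte keratin, had 2591 to 6087 CPM and the fibroblast collagen gene *Col1a1* 886 to 4002 CPM, so that markers of epithelial and of mesenchymal cells were both abundant in every tumor. In bulk RNA, fewer cells of a type and less RNA per cell cannot be told apart. Tumor 36 stood apart in its cell type markers. Its 5 simple epithelium markers summed to 4660 CPM against 566 to 1174 CPM in the other tumors. Of these, *Krt18* was highest in tumor 18 (444 against 245 CPM in tumor 36) and all the others in tumor 36. The 4 smooth muscle and myoepithelium markers of tumor 36 summed to 2069 against 225 to 507 CPM. Its 4 basal keratinocyte markers, by contrast, summed to 5353 against 9652 to 13991 CPM. The ribosomal precursor *Rn45s* took 13.3% of the counts of tumor 36 and 5.28% to 10.2% elsewhere. The mean ratios of members and the members' median fold change between the lines are therefore also given without tumor 36. Fold changes of genes outside the family are given with it included.

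Levels of different genes were compared as deposited RPKM, which divide counts by gene length. *Nfkbia*, which encodes IκBα, the main inhibitor of RelA dimers, was the most abundant member in every tumor, with 413, 285 and 376 RPKM in tumors 13, 18 and 25 and 403, 389 and 182 RPKM in tumors 27, 29 and 36. It was among the top 1.15% of all entries in each tumor and made up 49.1% to 57.6% of the members' summed RPKM. *Nfkb2* followed with 101 ± 36.4 RPKM (SD, n = 6) and *Relb* with 69.1 ± 19.2 RPKM (SD, n = 6). The *Nfkbia* range lay above that of *Nfkb2* without overlap, and *Nfkb2* was above *Relb* in 6 of 6 tumors although their ranges overlapped.

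The middle of the order was crowded. *Nfkbie* (IκBε) had 30.1 ± 8.73 RPKM, *Bcl3* 24.9 ± 7.34, *Nfkb1* (the p105 precursor of p50) 23.6 ± 7.50, *Rela* 23.4 ± 3.38 and *Nfkbib* (IκBβ) 17.4 ± 3.68 RPKM (SD, n = 6 each). *Nfkbie* was above *Bcl3* in 4 of 6 tumors, *Bcl3* above *Nfkb1* in 3 of 6 and *Nfkb1* above *Rela* in 3 of 6, so that these neighbors did not differ beyond the spread of the tumors. At the low end *Nfkbiz* had 7.55 ± 3.99 RPKM and *Rel*, whose product c-Rel is best known from lymphocytes, 1.93 ± 0.828 RPKM (SD, n = 6). *Rel* was the lowest member in every tumor, with ranges that did not overlap those of *Nfkbiz*. It still had 160 to 600 counts per tumor and the other members at least 956, so that counting error is small beside the differences between tumors.

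**Figure D1:**
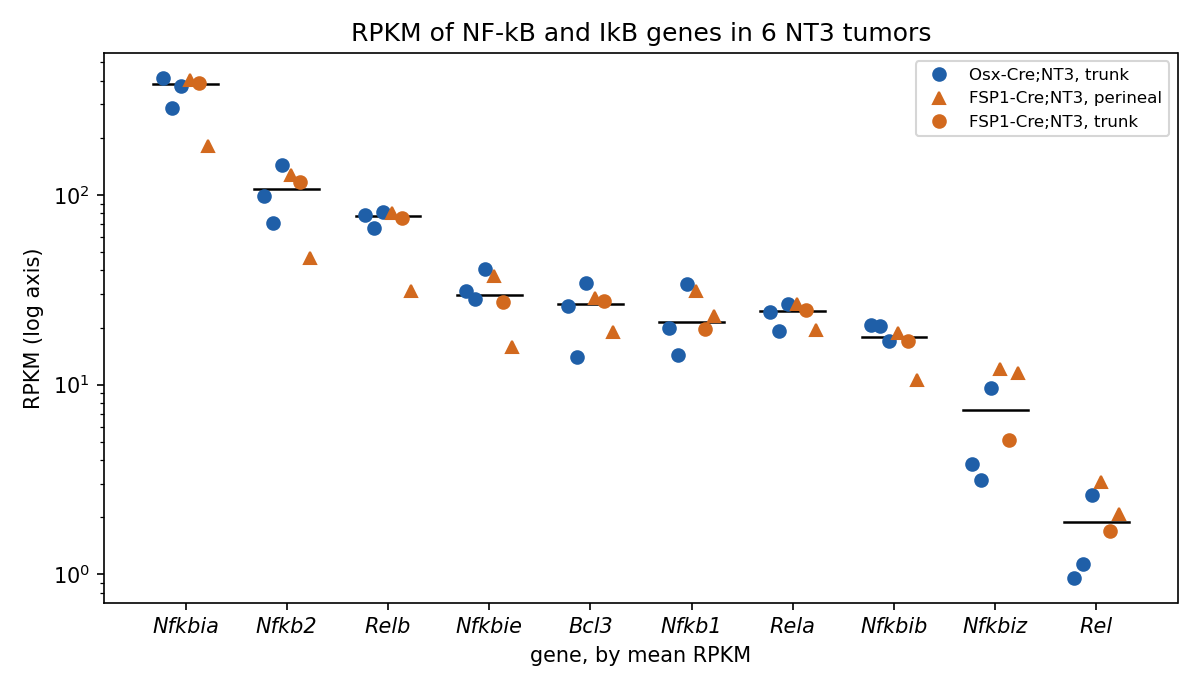
RPKM of each gene in the 6 tumors on a log axis, with genes ordered by their mean and a black bar at the median. Blue points are Osx-Cre;NT3 and orange points FSP1-Cre;NT3 tumors, circles are trunk and triangles perineal tumors. *Nfkbia* lies between 182 and 413 RPKM and *Rel* between 0.963 and 3.09 RPKM, and the perineal tumor 36 is the lowest triangle for *Nfkbia*, *Nfkb2* and *Relb*.

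Across tumors the genes were followed as CPM, in which counts are divided by library sizes corrected by TMM, a trimmed mean of ratios between libraries. Among the subunits, *Rela* was the steadiest. It had 87.0, 68.4 and 88.4 CPM in tumors 13, 18 and 25 and 81.4, 83.5 and 64.7 CPM in tumors 27, 29 and 36, a difference of 1.37 times between the highest and the lowest tumor. Its SD over the 6 tumors was 0.19 on the log2 CPM scale, where the median SD of all 16415 genes tested was 0.47. The 10 members had a median SD of 0.46, and 4 of them were above the median of all genes, so that as a group they varied about as much as other genes.

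*Relb*, the subunit that partners p52, was nearly level in 5 tumors and low in tumor 36. It had 230, 195 and 220 CPM in the *Osx-Cre;NT3* tumors 13, 18 and 25, 201 and 209 CPM in the *FSP1-Cre;NT3* tumors 27 and 29, and 85.3 CPM in tumor 36. The lines overlapped, since tumors 27 and 29 lay within the range of the *Osx-Cre;NT3* tumors. *Nfkb2* had 432, 308 and 583 CPM in tumors 13, 18 and 25 and 471, 483 and 190 CPM in tumors 27, 29 and 36, with tumor 36 again lowest and tumor 25 highest.

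*Nfkb1* and *Rel* did not share this pattern. *Nfkb1* had 108, 77.7 and 172 CPM in tumors 13, 18 and 25 and 145, 101 and 117 CPM in tumors 27, 29 and 36. *Rel* had 3.31, 3.90 and 8.28 CPM and 9.03, 5.52 and 6.66 CPM in the same order. For both, tumors 25, 27 and 36 were the 3 highest, a set that crosses line and site, and tumor 36 was not low.

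Of the IκB genes, the 3 that encode cytoplasmic inhibitors shared the low value of *Relb* in tumor 36, but not its nearly level values in the other tumors. *Nfkbia* had 867, 594 and 730 CPM in tumors 13, 18 and 25 and 720, 769 and 355 CPM in tumors 27, 29 and 36. *Nfkbie* had 47.5 CPM in tumor 36 against 82.4 to 121 CPM in the others, and *Nfkbib* 25.6 against 40.5 to 53.5 CPM. The lowest tumor was 36 for all 3.

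The nuclear IκB genes differed from these and from each other. *Nfkbiz* had 19.8, 16.1 and 45.8 CPM in tumors 13, 18 and 25 and 53.2, 24.8 and 55.1 CPM in tumors 27, 29 and 36. Tumors 25, 27 and 36 were again the 3 highest, and the SD of 0.78 on the log2 CPM scale was the largest of the 10 members. *Bcl3* had 63.6, 33.8 and 77.8 CPM in tumors 13, 18 and 25 and 59.2, 63.2 and 42.9 CPM in tumors 27, 29 and 36, with its lowest value in tumor 18, the deepest library.

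Tumor 36 was the lowest of the 6 for 6 of the 10 members, *Rela*, *Relb*, *Nfkb2*, *Nfkbia*, *Nfkbib* and *Nfkbie*, whereas it was the lowest for 23.8% of all genes tested. It was below every other tumor by more than 1.5 times for 5 members (these without *Rela*), against 5.25% of all genes tested. *Relb* in tumor 36 was 0.404 times the mean of the other 5 tumors, *Nfkb2* 0.418 times, *Nfkbie* 0.478 times and *Nfkbia* 0.483 times, whereas *Nfkb1* was 0.971 times and *Nfkbiz* 1.72 times that mean. Tumors 25, 27 and 36 were the 3 highest for 3 members, *Nfkb1*, *Rel* and *Nfkbiz*, against 9.76% of all genes tested. These patterns were noticed in the data and are given as descriptions of these 6 tumors. The part of the marker sums of tumor 36 in them was not tested.

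**Figure D2:**
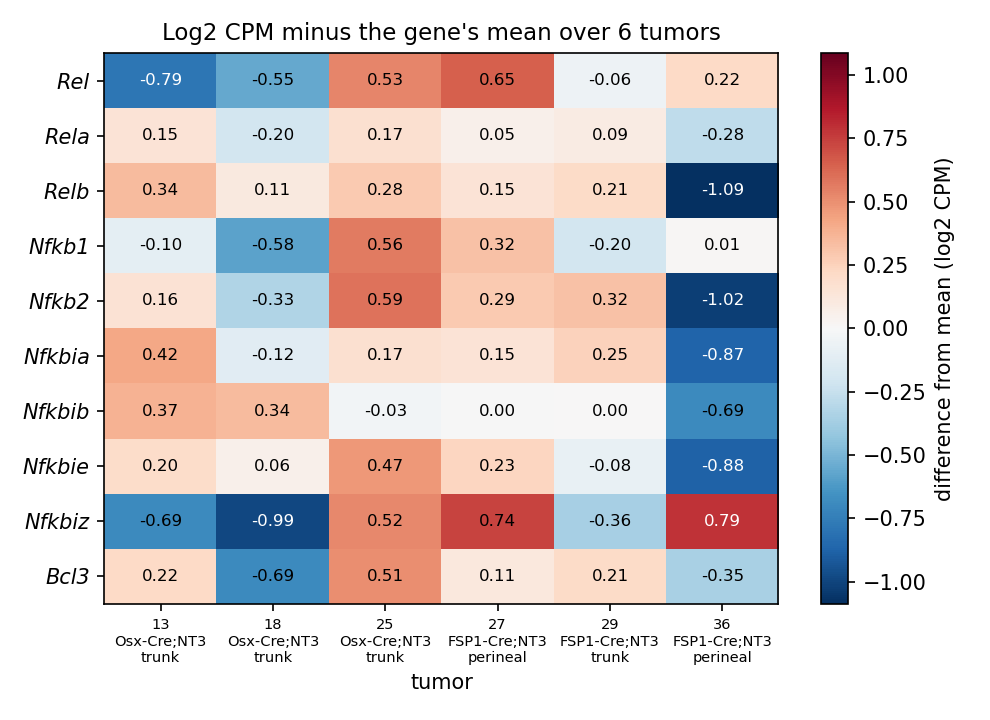
Difference of log2 CPM from the gene's mean over the 6 tumors, with genes in rows and tumors in columns, red above and blue below the mean. The column of tumor 36 is blue for *Rela*, *Relb*, *Nfkb2*, *Nfkbia*, *Nfkbib*, *Nfkbie* and *Bcl3* and red for *Nfkbiz* and *Rel*, and the rows of *Rel*, *Nfkb1* and *Nfkbiz* have their 3 highest values in tumors 25, 27 and 36.

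Within a tumor, ratios of members do not depend on how libraries are scaled. The summed RPKM of the alternative subunit genes *Relb* and *Nfkb2* was 4.03, 4.13 and 3.72 times that of the classical subunit genes *Rela* and *Nfkb1* in tumors 13, 18 and 25, and 3.59, 4.37 and 1.84 times in tumors 27, 29 and 36. Transcripts of the alternative subunits thus outnumbered those of the classical subunits per length in 6 of 6 tumors, with tumor 36 lowest. The mean ratio was 3.61 ± 0.911 (SD, n = 6), and 3.97 ± 0.312 (SD, n = 5) without tumor 36. *Relb* over *Rela* was 1.62 in tumor 36 and 3.03 to 3.51 in the other 5 tumors, and *Nfkb2* over *Nfkb1* was 2.03 in tumor 36 and 4.07 to 5.97 in the others.

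The summed inhibitor genes over the summed *Rela*, *Rel* and *Relb* did not set tumor 36 apart. The summed RPKM of *Nfkbia*, *Nfkbib* and *Nfkbie* was 4.49, 3.82 and 3.92 times that of *Rela*, *Rel* and *Relb* in tumors 13, 18 and 25, and 4.16, 4.24 and 3.95 times in tumors 27, 29 and 36. Tumor 36 lay within the range of the others here, with a mean of 4.10 ± 0.247 (SD, n = 6) and of 4.13 ± 0.265 (SD, n = 5) without it, although its summed RPKM of all 10 members was 361 against 524 to 767 in the other tumors. *Nfkbia* and *Relb* were both low in tumor 36. Their ratio was highest there, at 5.81, against 4.24 to 5.27 in the other tumors. The ratio of *Nfkbia* to *Rela* was instead lowest in tumor 36. *Nfkbia* made up 50.3% and *Rela* 5.35% of the members' summed RPKM there, against 49.1% to 57.6% and 3.37% to 3.65% elsewhere. RNA levels say nothing of the cutting of p100 or of the amount of IκB protein, which are not measured by sequencing.

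**Figure D3:**
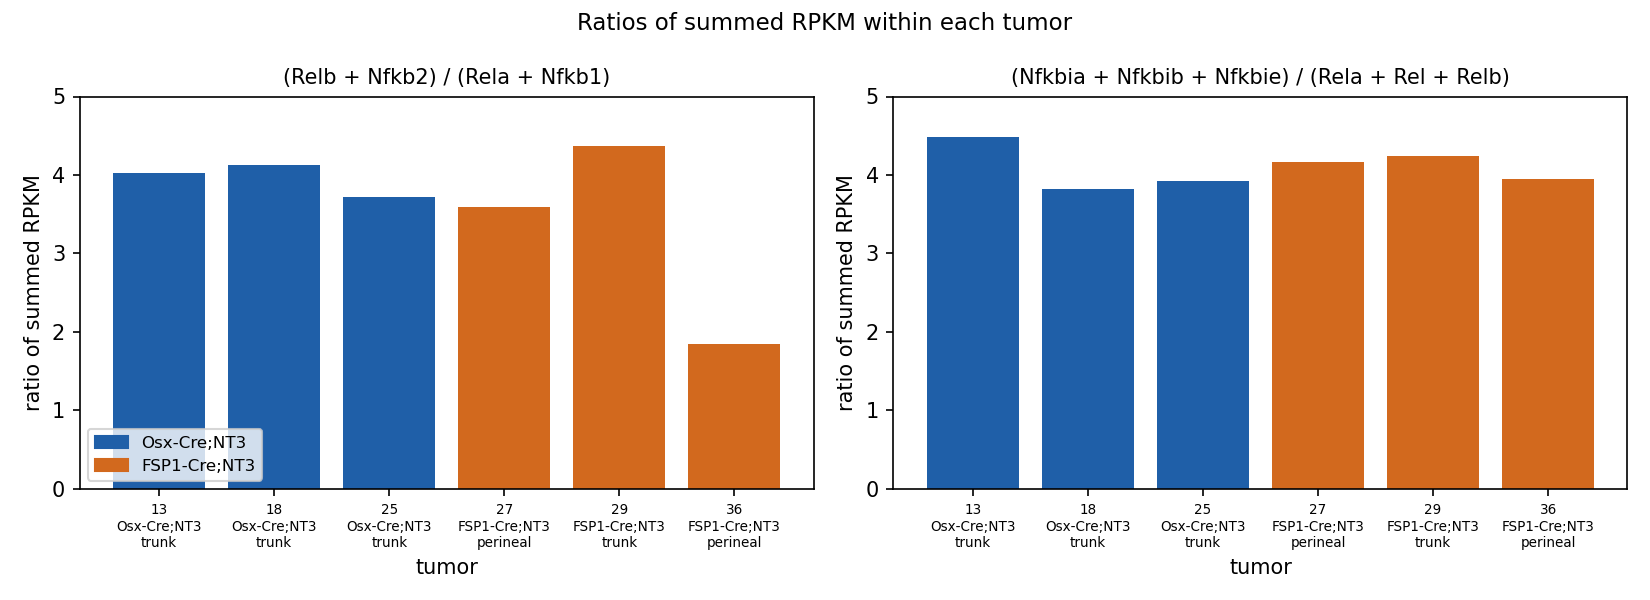
Ratios of summed RPKM in each tumor on axes that start at 0, blue for Osx-Cre;NT3 and orange for FSP1-Cre;NT3 tumors. On the left, Relb and Nfkb2 over Rela and Nfkb1 range from 3.59 to 4.37 in 5 tumors and are 1.84 in tumor 36, and on the right the inhibitor genes over the Rel genes range from 3.82 to 4.49.

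Whether the Cre line went with a difference in the NF-κB genes was tested with edgeR's quasi-likelihood test over all 16415 genes. No member passed the adjusted threshold of 0.05, and neither did any other gene (0% called, smallest adjusted p = 0.359). At an unadjusted p under 0.05, 1770 genes (10.8%) and none of the 10 members passed, and with DESeq2 452 genes (2.74%) and again no member were called at the adjusted threshold. The CPM ranges of the lines overlapped for all 10 members, whereas they were apart for 17% of all genes. The members had a median log2 fold change of -0.15 (*FSP1-Cre;NT3* over *Osx-Cre;NT3*) beside 0.01 for all genes, and 3 of 10 had a value above 0. Without tumor 36 the direction turned, with a median of 0.03 beside -0.02 for all genes and 7 of 10 members above 0.

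Single genes show how wide the remaining uncertainty is. *Relb* averaged 215 ± 17.8 CPM in *Osx-Cre;NT3* and 165 ± 69.2 CPM in *FSP1-Cre;NT3* tumors (SD, n = 3 each), a fold of 0.768 with a 95% interval of 0.433 to 1.36 (edgeR adjusted p = 0.651). Without tumor 36 the log2 fold change of *Relb* went from -0.38 to -0.07. *Rela* averaged 81.3 ± 11.2 and 76.6 ± 10.3 CPM (SD, n = 3 each), a fold of 0.942 with the narrowest interval of the 10, 0.684 to 1.30. For *Rela* a difference between the lines above 1.5 times is therefore outside the interval, while for *Nfkbiz*, with a fold of 1.63 and an interval of 0.730 to 3.63, differences of over 3 times in the same direction are inside it.

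Part of the values hung on a single tumor. Without tumor 25, the highest *Osx-Cre;NT3* tumor for *Rel* and *Nfkbiz*, the log2 fold changes of these genes rose from 0.45 to 0.92 and from 0.70 to 1.26, and edgeR still called neither (adjusted p = 0.194 and 0.135). DESeq2 without tumor 25, a setting added after the data were seen, called both (adjusted p = 0.0251 and 0.0176). That fit called 3702 genes (22.1%), whereas with all 6 tumors DESeq2 gave adjusted p = 0.702 and 0.549. Over the 17 alternatives the adjusted p ranged from 0.0251 to 1.00 for *Rel* and from 0.0176 to 1.00 for *Nfkbiz*. On trunk tumors alone, 3 against 1, *Nfkbiz* turned to a log2 fold change of -0.14.

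The site comparison set the perineal tumors 27 and 36 against the 4 trunk tumors, all 10 members included. No member and no other of the 16971 genes tested passed the adjusted threshold with edgeR (0%, smallest adjusted p = 0.263), and DESeq2 called 725 genes (4.1%) and no member. *Nfkbiz* was the single member whose sites did not overlap, with 53.2 and 55.1 CPM in the perineal tumors and 16.1 to 45.8 CPM in the trunk tumors, against 19.6% of all genes. Its log2 fold change was 1.02 (SE 0.41, unadjusted p = 0.0417, edgeR adjusted p = 0.459). DESeq2 without tumor 25, the highest trunk tumor for *Nfkbiz*, was a setting added after the data were seen. It called *Nfkbiz* (log2 fold change 1.40, adjusted p = 8.81e-04) among 755 genes (4.46%). Over the 17 alternatives the adjusted p of *Nfkbiz* ranged from 8.81e-04 to 1.00. Higher values in perineal tumors at an unadjusted p under 0.05 were found for 1507 genes (8.88%), so that 1 of 10 members is close to the share of all genes. Because both perineal tumors came from *FSP1-Cre;NT3* mice, site was compared within that line too, where *Nfkbiz* had 53.2 and 55.1 CPM against 24.8 CPM in the single trunk tumor.

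The other members had log2 fold changes from -0.58 (*Relb*) to 0.57 (*Rel*) between sites, with a median over the 10 of -0.31 beside -0.02 for all genes. The negative values leaned on tumor 36, without which *Relb* had -0.09, and *Nfkb2* and *Nfkbie* changed sign. Neutrophil markers moved with *Nfkbiz* by site, since all 5 had a higher mean in the perineal tumors and their sum was 163 and 478 CPM in tumors 27 and 36 against 21.1 to 64.2 CPM in trunk tumors. Other lists moved with site too. The 4 adipocyte markers summed to 34.3 and 123 CPM in tumors 27 and 36 against 2.32 to 12.5 CPM in trunk tumors. The 4 endothelium markers summed to 334 and 263 CPM against 87.1 to 223 CPM. Their sums did not overlap between the lines either, at 87.1 to 210 CPM in *Osx-Cre;NT3* and 223 to 334 CPM in *FSP1-Cre;NT3* tumors. An unadjusted edgeR p under 0.05 was found for 3 of 4 B cell, 3 of 4 smooth muscle and myoepithelium and 3 of 5 simple epithelium markers. The sums of these 3 lists overlapped between sites. Of all 16971 genes tested, 1784 had such a p. In tumor 25 *Nfkbiz* was at 45.8 CPM and the neutrophil sum was at its lowest value, 21.1 CPM. The part of any of these marker lists in the *Nfkbiz* values was not tested. The 3 pan-leukocyte markers summed to 445 and 434 CPM in tumors 27 and 36, 296 CPM in tumor 25 and 259 to 425 CPM in the other trunk tumors.

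**Figure D4:**
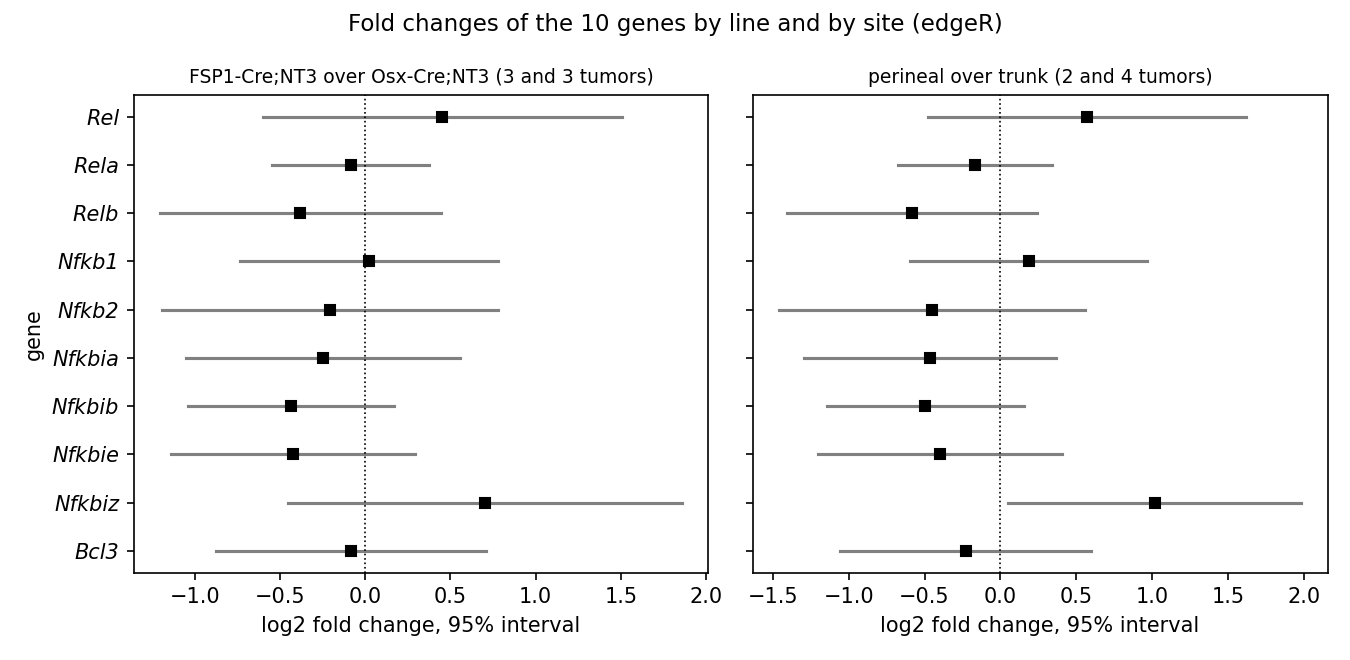
Log2 fold changes of the 10 genes between the lines (left) and between the sites (right), as squares with their 95% intervals from the edgeR fit. All intervals of the line comparison cover 0, and in the site comparison that of *Nfkbiz* alone, 0.05 to 1.98, lies above 0.

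The genes around the family were followed as 8 lists with 55 genes, of which 54 were tested. None was called at the adjusted threshold in either comparison, and 26 of 54 had a positive log2 fold change (*FSP1-Cre;NT3* over *Osx-Cre;NT3*), the median being -0.01. Of the upstream genes, 0 of 8 NIK and IKK genes and 0 of 6 feedback inhibitors passed even an unadjusted p of 0.05 between the lines. The most abundant of the NIK and IKK list per length was *Birc2*, an E3 ligase that keeps NIK low, with a mean of 81.1 RPKM, and that of the feedback inhibitors was *Tnip1*, an A20 partner, with 64.4 RPKM. Reads of the *NT3* transgene cannot be told apart from those of *Map3k14*, the endogenous *NIK* gene.

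Of the 6 genes for IκB and p100 turnover, *Skp1a*, part of the ubiquitin ligase that marks IκB, was the most abundant with a mean of 146 RPKM. *Rbx1*, another part of that ligase, had 154, 162 and 95.9 CPM in tumors 13, 18 and 25 and 86.9, 100.4 and 86.9 CPM in tumors 27, 29 and 36 (log2 fold change -0.59, unadjusted p = 0.0448, edgeR adjusted p = 0.458). The lines overlapped, as tumor 25 lay below tumor 29. Of the 4 further IκB-like genes the highest was *Nfkbil1* with 11.5 RPKM, and among receptors and ligands of the alternative arm *Ltbr*, the lymphotoxin beta receptor, and *Ltb*, a subunit of its ligand, with 29.5 and 36.9 RPKM. None of these 16 genes passed an unadjusted p of 0.05 between the lines.

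Chemokine genes among the NF-κB targets went in different directions. *Ccl20*, which attracts CCR6-bearing lymphocytes, had 955, 1431 and 1260 CPM in tumors 13, 18 and 25 and 441, 389 and 371 CPM in tumors 27, 29 and 36. Its lines did not overlap, yet with a log2 fold change of -1.60 it reached an edgeR adjusted p of 0.359 only. *Cxcl2* and *Cxcl5*, neutrophil attractants listed with it as classical targets, had log2 fold changes of 2.93 and 4.07 between the lines (unadjusted p = 0.0461 and 0.0317, edgeR adjusted p = 0.458 each). They had 3.99 and 2.70 CPM in tumor 27, 1.5 and 19.4 CPM in tumor 36 and at most 0.351 and 0.844 CPM in the other tumors. Perineal over trunk, the values were 3.71 and 4.81 (unadjusted p = 0.00146 and 0.00108, edgeR adjusted p = 0.263 each). By site, 6 of 14 classical targets had an unadjusted edgeR p under 0.05, beside 1784 of all 16971 genes tested. The neutrophil and adipocyte marker sums given above were also highest in tumors 27 and 36. A link between these chemokines and the markers was not tested.

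Of the 5 alternative targets, *Cxcl12*, a stromal chemokine, had 4.10, 10.9 and 6.17 CPM in tumors 13, 18 and 25 and 48.0, 17.5 and 166 CPM in tumors 27, 29 and 36 (log2 fold change 3.44, unadjusted p = 0.00548, edgeR adjusted p = 0.441). Its lines did not overlap, and neither did those of the 5 fibroblast markers by sum, at 3340 to 4159 CPM in *Osx-Cre;NT3* and 7053 to 9870 CPM in *FSP1-Cre;NT3* tumors, whose part in this was not tested. *Ccl19*, the most abundant of this list per length, had a mean of 10.7 RPKM. *Ccl21a* was at 0 counts in all 6 tumors, which at these depths allows up to 0.0184 to 0.0579 CPM for counting error alone.

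The genes whose centred log2 CPM over the 6 tumors lay nearest to that of *Relb*, among 10540 compared, were *Prr5l*, *Poglut1*, *1700025G04Rik*, *Fam189a2* and *Fam188b*, with root-mean-square differences of 0.05 to 0.10. *Prr5l* had 26.5, 23.2, 27.0, 23.2 and 26.8 CPM in tumors 13, 18, 25, 27 and 29 and 10.5 CPM in tumor 36. All 5 of these genes were lowest in tumor 36, and the nearest genes were not sought again without it. For *Rel* the nearest were *Rab11fip2*, *Nup98*, *Lats2* and *Mib1*, with differences of 0.10 to 0.14. *Nup98* had 18.4 and 18.8 CPM in tumors 13 and 18 and 30.1 to 49.9 CPM in the others. No member of the family was among the 5 nearest genes of either.

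Some levels rest on where the genes lie. *Nfkb2* (chromosome 19, 46304737 to 46312090 of GRCm38 in the deposited table), *Nfkbib* (chromosome 7, 28758251 to 28766524) and *Bcl3* (chromosome 7, 19808462 to 19822755) share exonic bases with genes on the other strand by GENCODE M21. Inside the deposited spans these are 114 bases of *Nfkb2* with the non-coding *AC114539.1* and 4 with *Psd*, 314 of *Nfkbib* with *Ccer2*, and 161 of *Bcl3* with the antisense gene *Gm16175*. The strandedness of the counting and the exons it used are not given in the sources used here, so that reads of the genes cannot be told apart where these bases were counted. The deposited span of *Rel* (chromosome 11, 23741729 to 23770970) ends 4882 bases short of the GENCODE gene at its 3′ side, and its counts leave that stretch out. *Relb* (chromosome 7, 19606222 to 19629438), *Nfkb1* (chromosome 3, 135584655 to 135691547), *Nfkbia* (chromosome 12, 55489409 to 55492647), *Rela* (chromosome 19, 5637490 to 5648130), *Nfkbie* (chromosome 17, 45555716 to 45563168) and *Nfkbiz* (chromosome 16, 55811377 to 55838641) share no exonic bases with another gene there.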

How the data were processed

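RNA of 6 tumors was measured by sequencing with an Illumina mRNA kit on a HiSeq2500. By the paper's methods, the authors used HISAT2 (Galaxy version 2.1.0) on mm10 and then featureCounts, while the submitters' processing notes list bcl2fastq, TopHat2 2.0.6 and HTSeq, so the tool behind the file is uncertain. The gene annotation and strandedness are not given in the sources used here. The authors deposited raw counts per gene without normalization and, beside them, RPKM values, counts divided by gene length and library size. No column of a tumor was left out, and the entries of repeated symbols were kept apart. Samples were grouped by line and site from their labels, and each tumor came from its own mouse.

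The deposited counts were analysed in R 4.3.3 with edgeR 4.0.16 (filterByExpr, TMM scaling, glmQLFit and glmQLFTest, two-sided, Benjamini-Hochberg adjustment over all genes tested, threshold 0.05), with no covariate. Log2 CPM used a prior count of 2. RPKM served only to compare genes and to form ratios, which were not tested. Total counts ranged from 51824408 to 163297772, and the number of tumors rather than depth limits the precision. The limit for a count of 0 is 3 counts, if each count is a separate read, which the even counts put in doubt, and covers counting error only.

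The members and gene lists were chosen with earlier results of these data known. The genes named are all members, list genes with an unadjusted p under 0.05 between the lines or past the adjusted threshold, the gene of highest mean RPKM of each list, and the 5 genes nearest to *Relb* and to *Rel* (mean log2 CPM of at least 3), of which 1 is not reported here. *Krt5*, *Krt18*, *Col1a1* and *Map3k14* were named after their values were seen. Promoter windows came from RefSeq GRCm38.p6. Alternatives were DESeq2 1.42.0, library sizes alone, upper-quartile scaling, DESeq2 size factors, other filters, halved counts, site or line as a covariate, subsets and each tumor left out. DESeq2 without tumor 36 or 25, and the motif with 1 mismatch, were added after seeing the data. Figures were drawn with matplotlib 3.10.9.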

Additional observations from a re-analysis of the deposited data

Results flagged for a closer look

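Of 24 values examined for a tumor far from the rest, 2 stood out, where chance at 1 in 20 gives 1.2. *Relb* in tumor 36 was at 6.41 on the log2 CPM scale, and the nearest of the other 5 tumors was at 7.61, a gap that took up 0.836 of the whole range. The log2 ratio of *Relb* and *Nfkb2* to *Rela* and *Nfkb1* was 0.88 in tumor 36, with the nearest tumor at 1.85 and a gap of 0.774 of the range. Both values share *Relb* and the same tumor, so they are not separate signs. Tumor 36 also had the lowest basal keratinocyte and the highest simple epithelium marker sums of the 6 tumors.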

How the results depend on the processing

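No paired analysis was possible because the tumor numbers of the lines differ. Over 17 alternatives each, no member was called between the lines or the sites except with DESeq2 without tumor 25, added after the data were seen. That setting called 2 members between the lines, *Rel* (log2 fold change 0.94, adjusted p = 0.0251) and *Nfkbiz* (1.28, adjusted p = 0.0176). Between the sites it called 1 member, *Nfkbiz* (1.40, adjusted p = 8.81e-04). Genes called between the lines rose from 0 with edgeR to 452 with DESeq2, 201 with DESeq2 without tumor 36 and 3702 with DESeq2 without tumor 25. Genes called between the sites rose to 725, 15 and 755 in the same settings, and with edgeR ranged from 0 to 567 with 1 tumor left out, at 2 without tumor 25 and 567 without tumor 27, where the lone perineal tumor is assumed to vary like the others. The direction of *Relb*, *Rel*, *Nfkbib* and *Nfkbie* between the lines was the same in every alternative. The other members changed sign, *Nfkbiz* from 0.70 and the rest from values between -0.25 and 0.02. With library sizes alone the log2 fold changes between the lines were 0.029 for *Rela* and 0.024 for *Bcl3*. With site as a covariate they were 0.040 for *Rela*, -0.24 for *Nfkb1*, 0.13 for *Nfkb2*, 0.075 for *Nfkbia*, -0.13 for *Nfkbiz* and 0.11 for *Bcl3*, and with trunk tumors alone 0.036, -0.24, 0.13, 0.071, -0.14 and 0.11. With 1 tumor left out they ranged from -0.20 to 0.020 for *Rela*, from -0.22 to 0.34 for *Nfkb1*, from -0.43 to 0.11 for *Nfkb2*, from -0.47 to 0.026 for *Nfkbia* and from -0.36 to 0.14 for *Bcl3*. With DESeq2 without tumor 36 they were 0.0011 for *Rela*, 0.094 for *Nfkb2*, 0.0075 for *Nfkbia* and 0.045 for *Bcl3*, and without tumor 25 they were 0.026 for *Nfkb2* and 0.16 for *Bcl3*. Between the sites, *Nfkb2* and *Nfkbie* ranged from -1.27 to 0.061 and from -1.08 to 0.056 with 1 tumor left out, the positive values being those without tumor 36, and had 0.028 and 0.023 with DESeq2 without tumor 36. The cause of these changes was not tested. The inhibitor ratio was 2.91 without length correction, and the subunit ratio stayed within 1 SD of its mean. The motif count was 6 members with the looser pattern and 7 with 1 mismatch, where 45.5% of all windows also match. With 3 tumors a line, the number of tumors limits what can be detected.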
